A study of Mus musculus with 10 samples.

Results

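The genes described here carry out presentation of peptides on MHC class II molecules. The 10 genes were listed by name, namely H2-Aa, H2-Ab1, H2-Eb1, Cd74, Ctss, H2-DMa, H2-DMb1, H2-Oa, H2-Ob and Ciita. A probe of the array was assigned to a gene when the transcript accession in the scanner files mapped to that gene's symbol, and where a gene had more than 1 probe, the one whose mean over the 10 columns of the deposited matrix was highest stood for the gene. This gave 9 of the 10 genes, with 13 probes, out of 19096 genes named on the array. H2-Eb1, which encodes a classical beta chain, received no probe by this rule and is not analysed here.

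RNA had been taken from 5 whole lungs of wild-type mice (WT) and from 5 lung squamous cell carcinomas (SCC), and each sample was hybridised to an Agilent array of the whole mouse genome in a single colour. The WT mice carried floxed Lkb1 alleles without Cre (Lkb1f/f), the SCC mice were CCSPiCreLkb1f/f, and all were mice labelled B6.129 and aged 13 months without special treatment. In the SCC mice the CCSP promoter directs Cre, which the paper describes as active in all airway epithelial cells. Lkb1 is in this way removed from epithelium, while leukocytes keep the floxed alleles. The floxed alleles are thus shared by both groups, and what separates them is Cre together with the tumour. The comparison sets a whole organ against a tumour, and the labels give no sex for single mice.

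MHC class II molecules are pairs of an alpha and a beta chain that display peptides from endocytosed protein to CD4 T cells. The chains are assembled on the invariant chain, Cd74, which cathepsin S (Ctss) trims to a short remnant in the groove. H2-DM exchanges this remnant for peptides and H2-O holds H2-DM back. Transcription of the chains, of Cd74 and of H2-DM depends on the coactivator Ciita, which is drawn to the paired X and Y boxes of their promoters by the RFX, NF-Y and CREB proteins. In the lung, dendritic cells, macrophages and B cells carry class II, and alveolar type 2 cells do as well. Other epithelia can be induced to do so by interferon gamma.

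The promoters of the class II genes are shown first because Ciita acts through letters that several of them have in common. RefSeq windows from 250 bases before to 50 after the start site (build GRCm38.p6) were at hand for 7 of the 10 genes. The letters TGATTGG (the Y box core) and the spaced pair GNAAC and then TGATTGG, with at most 60 bases in between, were searched on both strands. These letters were chosen after the sequences had been viewed, and every window with the pair also holds the Y box core. The pair was found in the windows of H2-Aa, H2-DMb1, H2-Eb1, H2-Oa and H2-Ob, or 5 of 7 genes, against 1.55% of all 32851 windows, and the Y box core alone was in 7.82% of all windows. In the following stretches, written 5′ to 3′ on the strand of the gene, capitals mark the X core and the Y box. They lie at chr17:34092295-34092348 for H2-Oa (plus strand), chr17:34153089-34153142 for H2-DMb1 (plus strand), chr17:34238810-34238860 for H2-Ob (plus strand) and chr17:34287859-34287912 for H2-Aa (minus strand).
H2-Oa: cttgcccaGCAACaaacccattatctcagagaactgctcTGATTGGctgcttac
H2-DMb1: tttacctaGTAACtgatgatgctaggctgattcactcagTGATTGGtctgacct
H2-Ob: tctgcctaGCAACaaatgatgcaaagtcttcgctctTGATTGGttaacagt
H2-Aa: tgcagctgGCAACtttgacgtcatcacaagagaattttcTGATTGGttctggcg

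The spacing was closely kept. The first letters of the X core and of the Y box lay 31 bases apart in H2-Oa, H2-DMb1 and H2-Aa and 28 bases apart in H2-Ob. The windows of H2-DMa and Ctss did not hold the pair. The Ctss window was the only one of the 7 with the letters GAAA, any 2 bases and GAAA again, as found in interferon response elements, which 3.44% of all windows held. That stretch, at chr3:95526735-95526785 on the plus strand, with those letters in capitals, is shown because Ctss was the gene of the family that rose. It was thus picked with the array values known, and a part of these letters in the rise was not tested.
Ctss: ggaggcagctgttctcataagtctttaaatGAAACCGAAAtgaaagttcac

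On the arrays most of the family fell by a modest amount in SCC. Of the 9 measured genes, 6 fell, 1 rose and 2 did not pass the test, where passing means an adjusted p below 0.05 in a limma fit over all probes with Benjamini-Hochberg adjustment. H2-Ab1, Cd74, H2-DMa, H2-DMb1, H2-Oa and Ciita fell, Ctss rose, and H2-Aa and H2-Ob did not pass. The median difference of the 9 genes was -0.54 on the log2 scale (SCC minus WT), beside -0.090 over all tested probes. These were broad changes of the whole profile: 26.6% of the 30374 tested probes fell and 22.4% rose. A share of 66.7% of the family thus fell against 26.6% of all probes. When a difference of at least 2-fold was also asked for, 1 gene of the 9 was called lower, H2-Oa, and none higher, against 13.0% and 9.92% of all probes, so at this size the family was near the background. On 5 of the 9 genes every SCC array lay below every WT array, which held for 21.0% of all probes, and on none did every SCC array lie above, which held for 16.3%. Since RNA came from whole tissue, fewer cells that carry these transcripts and less transcript per cell cannot be told apart.

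**Figure D1:**
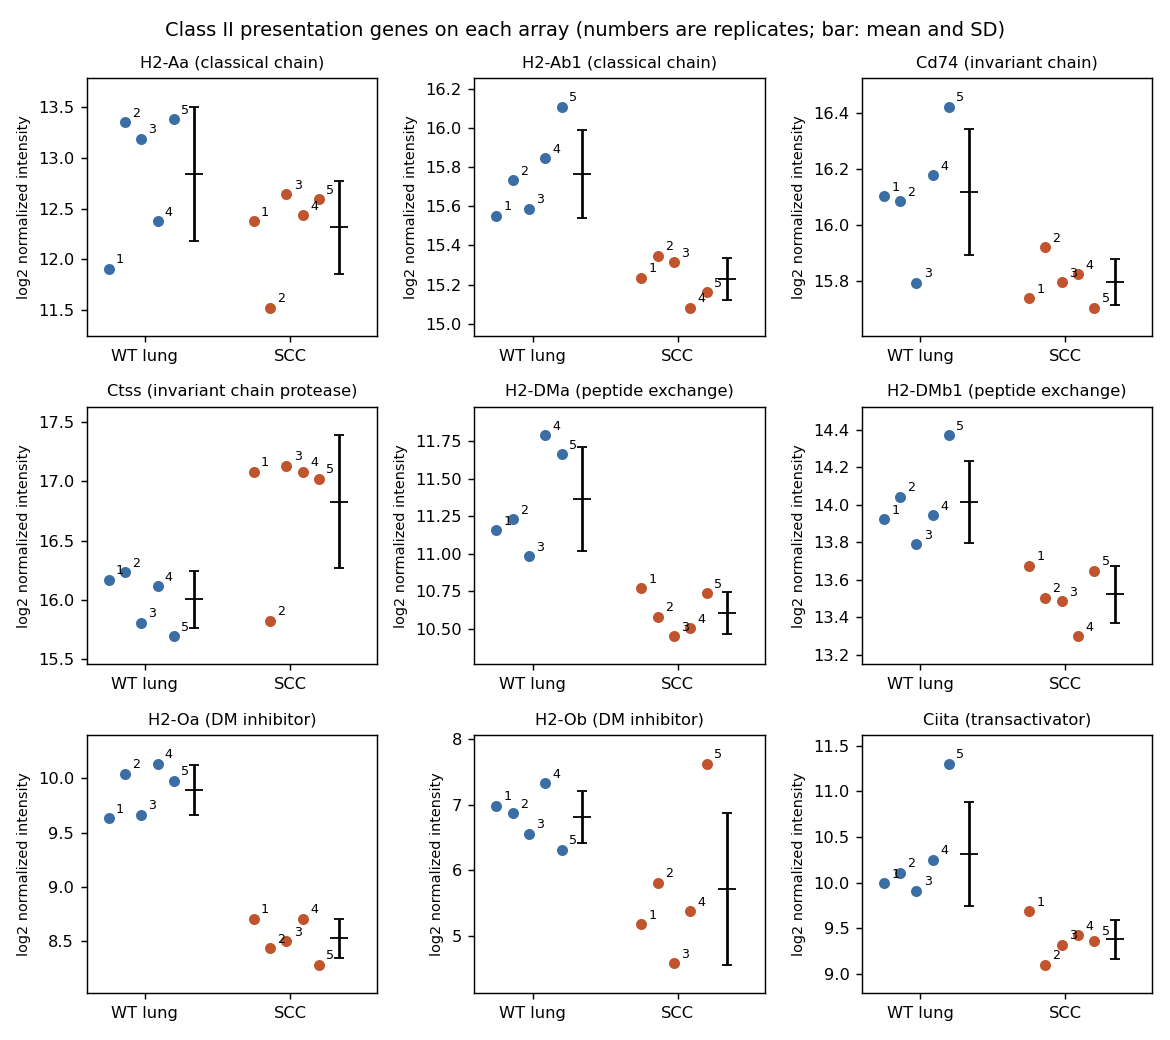
Log2 quantile-normalized intensity of the 9 class II presentation genes on each of the 10 arrays, 1 panel per gene with its own vertical scale. Points are arrays with their replicate number (blue WT lung, orange SCC), and the black bars give the mean and SD of the 5 arrays. H2-Ab1, H2-DMa, H2-DMb1, H2-Oa and Ciita separate the groups without overlap, Ctss is higher on 4 SCC arrays, and replicate 5 of SCC is the high point of H2-Ob.

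Among the classical chains, H2-Ab1, which encodes the beta chain of the I-A molecule, fell by a small and even amount. Its log2 intensity was 15.55, 15.73, 15.59, 15.85 and 16.11 on WT arrays 1 to 5. On SCC arrays 1 to 5 it was 15.24, 15.35, 15.32, 15.08 and 15.16. All SCC values lay below all WT values, and the difference was -0.54 ± 0.12 (SE, n = 5 and 5), or 1.45-fold lower, with an adjusted p of 0.00475 in limma and an exact two-sided permutation p of 0.00794, the smallest that all splits of 10 arrays can give. The other probes of the gene gave -0.58 and -0.42 and passed as well, with adjusted p values of 0.00567 and 0.0294 in limma.

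H2-Aa, the alpha chain that pairs with H2-Ab1, had a similar mean difference with a much wider spread. The represented probe read 11.90, 13.35, 13.19, 12.37 and 13.38 on WT arrays 1 to 5. It read 12.38, 11.52, 12.64, 12.43 and 12.59 on SCC arrays 1 to 5. WT arrays 1 and 4 were as low as the SCC arrays, SCC array 2 was the lowest of all, and the groups overlapped. The difference of -0.53 ± 0.33 did not pass (adjusted p = 0.211 in limma, exact permutation p = 0.159), and its 95% interval ran from -1.27 to 0.22. The second probe, with a WT range of 12.15 to 13.01 and an SCC range of 11.70 to 12.28, gave -0.54 ± 0.18 and did pass (adjusted p = 0.0324 in limma). WT arrays 1 and 4 were the lowest WT arrays on this probe too. The 2 probes therefore had the same size of difference and stood on opposite sides of the threshold.

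Cd74 encodes the invariant chain and showed the smallest difference of the family. It read 16.11, 16.09, 15.80, 16.18 and 16.42 on WT arrays 1 to 5 and 15.74, 15.92, 15.80, 15.83 and 15.71 on SCC arrays 1 to 5. WT array 3 lay among the SCC arrays. The difference was -0.32 ± 0.12, or 1.25-fold lower, with an adjusted p of 0.0450 in limma. The test was passed narrowly. It was still passed without WT array 3 or without SCC array 2 and no longer when any 1 of the other 8 arrays was left out (adjusted p from 0.0148 to 0.0941 over the 10 fits). With each array scaled by its 75th percentile the difference was -0.14 (adjusted p = 0.338 in limma).

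Ctss, the protease that cleaves the invariant chain, moved the opposite way. It read 16.17, 16.24, 15.81, 16.12 and 15.70 on WT arrays 1 to 5. It read 17.08, 15.83, 17.13, 17.08 and 17.02 on SCC arrays 1 to 5. The SCC arrays other than array 2 lay close to each other and above all WT arrays, and SCC array 2 lay inside the WT range. The difference was 0.82 ± 0.25, or 1.77-fold higher, with an adjusted p of 0.0230 in limma and an exact permutation p of 0.0317. Without SCC array 2 it was 1.07, past 2-fold. The test was no longer passed without WT array 3 or 5 or without SCC array 1, 3 or 4, where the adjusted p in limma was at most 0.0558. SCC array 2 was also apart from the other SCC arrays in its myeloid markers. The mean log2 level of 13 macrophage markers was 12.04 on SCC array 2 and 12.73 to 12.89 on the others, against 11.80 to 12.17 on WT arrays. That of 7 neutrophil markers was 9.86 on SCC array 2 and 12.36 to 12.60 on the others, against 10.09 to 11.09 on WT arrays. The part of these cells in the Ctss difference was not tested.

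The subunits of the peptide exchange factor H2-DM fell together. H2-DMa read 11.16, 11.23, 10.98, 11.79 and 11.66 on WT arrays 1 to 5 and 10.77, 10.58, 10.45, 10.50 and 10.73 on SCC arrays 1 to 5. H2-DMb1 read 13.92, 14.04, 13.79, 13.95 and 14.37 on WT arrays 1 to 5 and 13.67, 13.51, 13.48, 13.30 and 13.65 on SCC arrays 1 to 5. Neither gene's groups overlapped. H2-DMa fell by 0.76 ± 0.16 (1.69-fold lower, adjusted p = 0.00396 in limma) and H2-DMb1 fell by 0.49 ± 0.13 (1.41-fold lower, adjusted p = 0.00931 in limma). The second H2-DMb1 probe fell by 0.56 (adjusted p = 0.00335 in limma). Its close paralog H2-DMb2, another beta chain of H2-DM, fell by 1.48 ± 0.26, although near-identical copies such as these can share hybridisation and their values are uncertain to that extent.

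H2-O, which restrains H2-DM, showed an even fall of 1 chain and scattered values of the other. H2-Oa, its alpha chain, read 9.63, 10.04, 9.66, 10.13 and 9.97 on WT arrays 1 to 5. It read 8.71, 8.44, 8.50, 8.71 and 8.29 on SCC arrays 1 to 5. The gap between the lowest WT and the highest SCC array was wider than the range of either group. The difference was -1.36 ± 0.13, or 2.57-fold lower, with an adjusted p of 4.5e-05 in limma. H2-Ob, the beta chain, was dim, being well above background on 5 WT and 4 SCC arrays. It read 6.99, 6.87, 6.56, 7.32 and 6.31 on WT arrays 1 to 5. It read 5.18, 5.81, 4.58, 5.38 and 7.63 on SCC arrays 1 to 5. SCC arrays 1 to 4 lay below all WT arrays and SCC array 5 lay above them. The difference of -1.09 ± 0.50 did not pass (adjusted p = 0.0937 in limma). With normexp background correction it was -0.39 (adjusted p = 0.154 in limma). Without SCC array 5 it was -1.57 and passed (adjusted p = 0.00129 in limma). On that array 90.2% of probes were well above background, against 71.0% to 74.5% on the other arrays, and the part of this in the H2-Ob value was not tested.

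Ciita, the coactivator that switches class II transcription on, fell by 0.94 ± 0.25 (1.91-fold lower, adjusted p = 0.0125 in limma). It read 9.99, 10.11, 9.91, 10.25 and 11.31 on WT arrays 1 to 5 and 9.69, 9.10, 9.32, 9.42 and 9.36 on SCC arrays 1 to 5. No value of SCC reached the WT range, and WT array 5 stood more than 1 log2 unit above the other WT arrays. Without WT array 5 the difference was -0.69 and still passed (adjusted p = 0.00372 in limma).

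**Figure D2:**
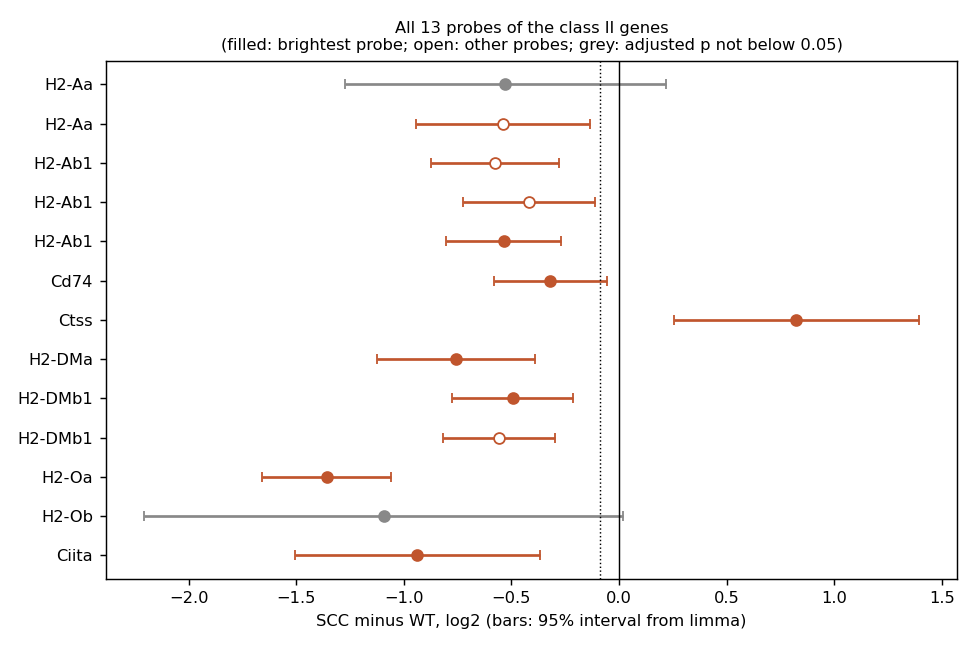
Difference between SCC and WT, in log2 units, for each of the 13 probes of the class II genes, with the 95% interval from limma. Filled points are the probes that represent a gene, open points the other probes, grey marks an adjusted p not below 0.05, and the dotted line is the median of all tested probes (-0.090). The 10 orange probes to the left passed lower, the Ctss probe passed higher, and the intervals of the grey H2-Aa and H2-Ob probes include 0.

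The genes did not rank the arrays of a group in the same way. WT array 5 was the highest WT array for 5 of the 9 genes and the lowest for Ctss and H2-Ob, and WT array 3 was the lowest for 4. Among the SCC arrays, SCC array 1 was the highest for 4 genes (for H2-Oa level with SCC array 4) and SCC array 2 the lowest for 3. The median over the 9 genes, taken relative to the WT mean of each gene, ran from -0.22 to 0.31 on WT arrays. On SCC arrays 1 to 5 it was -0.53, -0.79, -0.53, -0.72 and -0.41. The median over all probes, taken the same way, ran from -0.065 to 0.022 on the other 9 arrays and was -0.20 on SCC array 5. Relative to all probes, the class II median was -0.23 to 0.33 on WT arrays, -0.21 on SCC array 5 and -0.76 to -0.47 on the other SCC arrays. With Ctss left out of the median, it was -0.24 to 0.35 on WT arrays, -0.31 on SCC array 5 and -0.86 to -0.51 on the others.

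The arrays lay on 3 slides, WT arrays 1 to 4 on the first, WT array 5 with SCC arrays 1 to 3 on the second, and SCC arrays 4 and 5 on the third. Slide and group could be separated on the second slide only, where SCC arrays 1 to 3 were set against WT array 5. There the differences were -1.20 for H2-Aa, -0.81 for H2-Ab1, -0.60 for Cd74, 0.98 for Ctss, -1.06 for H2-DMa, -0.82 for H2-DMb1, -1.42 for H2-Oa, -1.12 for H2-Ob and -1.94 for Ciita. Every sign was that of the full comparison. The single WT array there was also the one with the highest values for 5 genes. With slide as a block the same differences were obtained, and H2-Ab1, H2-DMb1, H2-Oa and Ciita passed lower, or 4 of 9, beside 6.44% of all probes. H2-DMa, Cd74 and Ctss did not pass in that fit (adjusted p = 0.0597, 0.0784 and 0.204 in limma).

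Of 16 other tested genes of the class II pathway 5 rose, 4 fell and 7 did not pass, with a median of 0.071. These shares were near those of all probes, of which 22.4% rose and 26.6% fell. With slide as a block 2 of the 16 rose, Ctsb and Ifi30, and none fell, beside 6.11% and 6.44% of all probes in that fit. The genes that rose encode lysosomal proteases and a reductase. Cathepsin D (Ctsd) rose by 1.49 ± 0.24, cathepsin L (Ctsl) by 1.47 ± 0.35, cathepsin B (Ctsb) by 1.34 ± 0.18, legumain (Lgmn) by 1.04 ± 0.26, and Ifi30, a thiol reductase that opens disulfide bonds of antigen, by 0.73 ± 0.08. For Ctsl and Lgmn, as for Ctss, SCC array 2 lay in the WT range. Those that fell were H2-DMb2, Creb1 (-0.60 ± 0.08), the ubiquitin ligase gene Marchf8 (-0.49 ± 0.11), whose product takes class II from the cell surface, and Rfxank (-0.34 ± 0.11), a subunit of the RFX complex. Of the 3 tested Creb1 probes, 1 passed lower and 1 higher, so the direction for that gene is uncertain. The other RFX subunits did not pass, with -0.60 ± 0.52 for Rfx5 and 0.12 ± 0.07 for Rfxap. Marchf1, which turns over class II in dendritic cells, gave 0.02 ± 0.18.

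Interferon gamma induces Ciita, and its axis was mixed. Of 10 tested genes 1 rose, 4 fell and 5 did not pass, with a median of -0.18, beside 22.4% and 26.6% of all probes. With slide as a block none rose and 2 fell, beside 6.11% and 6.44% of all probes in that fit. Without SCC array 2 the counts were 3 and 3, near the 26.5% and 32.3% of all probes there. The cytokine gene Ifng fell by 1.18 ± 0.44, with WT values of 6.75 to 7.73 and SCC values of 4.88 to 6.94, and the adjusted p of 0.0475 in limma became 0.0741 without SCC array 2 and 0.156 with 75th percentile scaling. Its receptor chains moved apart, with Ifngr1 lower by -0.81 ± 0.16 and Ifngr2 higher by 0.80 ± 0.17. Irf2 and Irf8, transcription factors of the interferon response, fell by 0.51 ± 0.09 and 0.41 ± 0.11. The other tested Irf8 probe gave -0.15 and did not pass, nor did Irf8 with slide as a block (adjusted p = 0.132 in limma). Irf1, a transcription factor that acts on the Ciita gene, did not pass, with -0.23 ± 0.26 and 0.43 on its other tested probe.

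**Figure D3:**
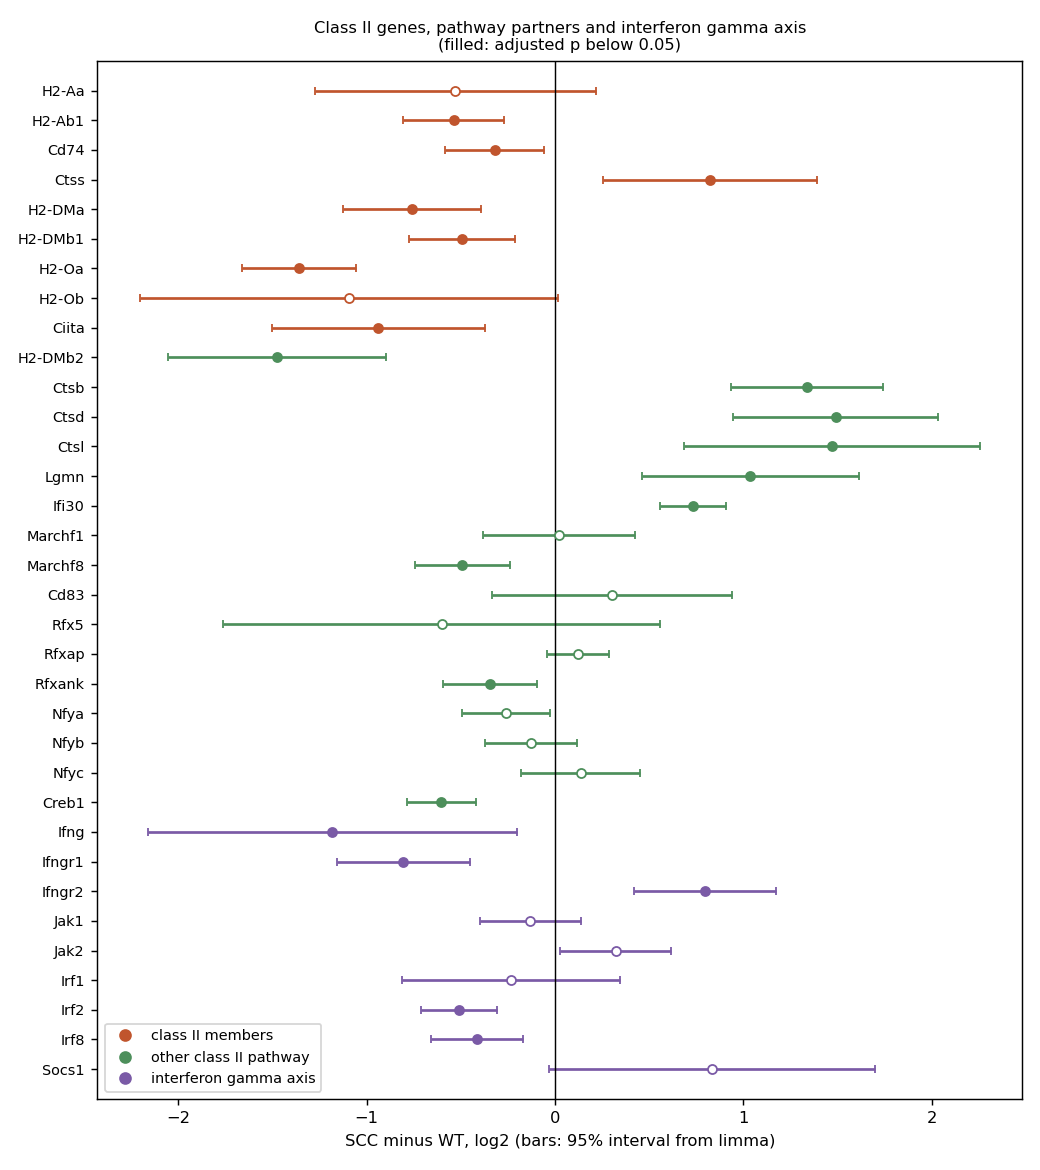
Difference between SCC and WT, in log2 units with the 95% interval from limma, for the 9 class II genes (orange), 16 other genes of the class II pathway (green) and 9 of the 10 tested genes of the interferon gamma axis (purple; 1 is not reported here). Filled points have an adjusted p below 0.05. The 5 filled green points to the right are Ctsb, Ctsd, Ctsl, Lgmn and Ifi30, on the side of Ctss.

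Presentation on class I, which serves CD8 T cells and is also induced by interferon, had more genes lower than higher as well. Of 12 tested genes 5 fell, 1 rose and 6 did not pass, with a median of -0.33, beside 26.6% and 22.4% of all probes. With 75th percentile scaling 3 fell, near the 24% of all probes in that fit, and with slide as a block 3 fell, beside 6.44%. The immunoproteasome subunits Psmb9, Psmb8 and Psmb10 fell by 1.11 ± 0.26, 1.10 ± 0.17 and 0.60 ± 0.14. The class I heavy chain H2-K1 fell by 0.59 ± 0.11 and its light chain B2m by 0.54 ± 0.11. With 75th percentile scaling these were -0.27 and -0.33 and did not pass (adjusted p = 0.136 and 0.0932 in limma), nor did they with slide as a block (adjusted p = 0.0676 and 0.0779 in limma), and of 3 tested H2-K1 probes 1 passed. The chaperone gene Calr rose by 1.10 ± 0.12. The peptide transporter genes Tap1 and Tap2 did not pass, with -0.27 ± 0.29 and -0.34 ± 0.18. Of 6 tested genes of the second signal between presenting cells and T cells, inhibitory ligands included, 2 fell and 1 rose. These shares were near those of all probes (26.6% and 22.4%). Cd40 fell by 1.53 ± 0.11 and Icosl by 0.72 ± 0.16, whereas Cd80 rose by 1.72 ± 0.52 with SCC values from 5.69 to 8.82. Cd80 gave 1.10 with slide as a block and did not pass (adjusted p = 0.435 in limma).

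The marker genes of the cells that carry class II moved in several directions, and their counts are to be read beside the 26.6% of all probes that fell and the 22.4% that rose, and with slide as a block beside 6.44% and 6.11%. Of 8 tested B cell markers 6 fell and none rose, with a median of -1.63, and with slide as a block 3 fell. Ms4a1 (CD20) fell by 2.78 ± 0.31. One of the tested Cr2 probes fell by 2.77 ± 0.37, while the other gave -0.17 and did not pass. Cr2 and Blk, among the 6, were well above background on 5 WT and 3 SCC arrays and had been tested through the WT group, so that their falls rest partly on signal near background. The mean of the B cell list was 8.05 to 8.74 on WT arrays and 6.99 to 7.22 on SCC arrays. Of 12 tested dendritic cell markers 7 fell and 3 rose, with a median of -0.60 and a mean level of 7.79 to 8.01 on WT and 7.28 to 7.65 on SCC arrays. Among those that fell were Cd209a (-2.75 ± 0.57), Siglech of plasmacytoid dendritic cells (-2.50 ± 0.43) and Ccr7, which guides dendritic cells to lymph nodes (-1.99 ± 0.30). Those that rose were Fscn1 (2.01 ± 0.30), Itgax (1.80 ± 0.47) and Batf3 (1.34 ± 0.44), of which Itgax is also expressed by macrophages. Cd209a and Siglech were well above background on 5 WT arrays and on 2 of 5 SCC arrays each, and Clec9a, another of the 7, on 5 and 3. These genes had been tested through the WT group, and the sizes of their falls rest in part on signal near background. With slide as a block 1 of the 12 markers fell and none rose, and none of these 6 named genes passed.

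Macrophage markers rose more often than they fell. Of 13 tested genes 6 rose and 2 fell, beside 22.4% and 26.6% of all probes. The median was 0.65, and the mean level was 11.80 to 12.17 on WT and 12.04 to 12.89 on SCC arrays. Cd14 rose by 2.56 ± 0.17, Cd68, a lysosomal protein, by 1.95 ± 0.40 and C1qb by 1.45 ± 0.22, while Marco of alveolar macrophages (-0.75 ± 0.23) and Csf1r (-0.50 ± 0.11, on 1 of 3 tested probes) fell. In the fit with slide as a block 1 of the 13 rose, and none fell. Of 7 neutrophil markers, which mark cells not known for class II, 4 rose and none fell, and with slide as a block none passed. Of the alveolar type 2 markers 6 of 8 fell, with a median of -0.78 and a mean level of 14.35 to 14.49 on WT and 13.40 to 14.14 on SCC arrays. The falls of Etv5 (-1.77 ± 0.38), Napsa (-0.98 ± 0.12) and Sftpb (-0.86 ± 0.22) were among them, and with slide as a block 1 of the 8 fell. The list of T cells had 6 of 10 genes lower and none higher (3 lower with slide as a block). Cd8a, of T cells that read class I, gave -2.48 ± 0.37. It did not pass with slide as a block (adjusted p = 0.120 in limma). Cd4, of T cells that read class II, gave 0.19 ± 0.16 and did not pass. The pan-leukocyte list had 2 genes higher and 2 lower of 6, among them Ptprc (CD45) at -0.55 ± 0.17, which did not pass with 75th percentile scaling or with slide as a block (adjusted p = 0.0541 and 0.312 in limma). In the latter fit 1 gene of the list was lower and none higher. Without SCC array 2, 8 macrophage, 6 neutrophil, 4 pan-leukocyte, 2 T cell and 1 B cell marker passed higher, beside 26.5% of all probes in that fit, and 3 macrophage markers passed lower, beside 32.3%. The part of these cell types in the class II values was not tested.

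**Figure D4:**
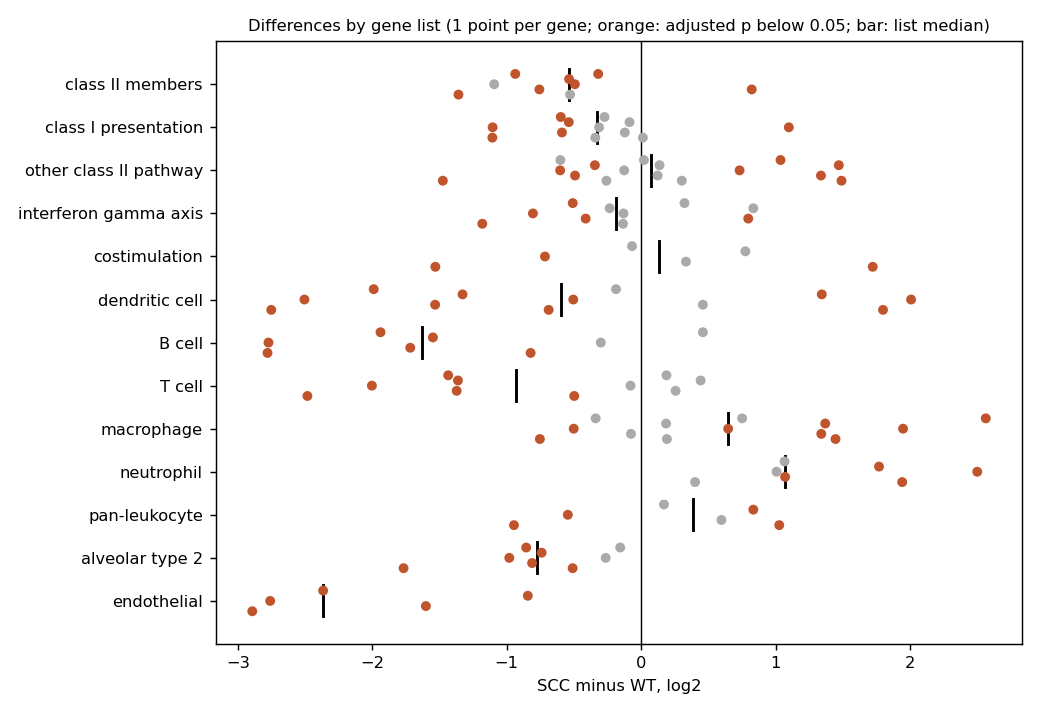
Difference between SCC and WT, in log2 units, for every tested gene of 13 lists, with 1 point per gene, orange for an adjusted p below 0.05 and a black bar at the list median. The class II median of -0.54 lies near those of dendritic cells (-0.60), alveolar type 2 cells (-0.78) and class I (-0.33), above that of B cells (-1.63) and below that of macrophages (0.65).

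Certain arrays need to be kept in view beside these values. Of 6 squamous markers 6 rose, and of 5 endothelial markers 5 fell, beside 22.4% and 26.6% of all probes. With slide as a block these counts were 5 and 3, beside 6.11% and 6.44%. Of the squamous markers Krt6a, Dsg3 and Sprr1b did not rise well above background in any WT lung and had been tested through the SCC arrays alone, so their count says little. Krt5 was at 5.29 to 6.63 on WT and 15.60 to 17.70 on SCC arrays, but the mean of the squamous list was 9.97 on SCC array 2 against 13.70 to 14.15 on the other SCC arrays. On SCC array 2 the endothelial and alveolar lists were also the nearest to WT. With SCC arrays 2 and 5 both left out, the class II median was -0.55 and 6 of 9 genes passed lower, beside 34.7% of all probes. The set of 6 was not the same, as Cd74 no longer passed and H2-Ob did (adjusted p = 0.0519 and 0.00038 in limma). Lkb1 (Stk11) itself is not analysed here.

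The genes whose pattern over the 10 arrays was most like that of the classical chains and Cd74 were looked for among 14102 genes. The measure was the root mean square distance, in log2 units, between a gene's centred profile and the mean centred profile of H2-Aa, H2-Ab1 and Cd74. Bst2, an interferon-induced membrane protein, was the nearest at 0.134, against a median distance of 0.465 over all candidates. Its difference was -0.52. The following ones were Notch2, Irf8, Rbm12b2, H2-Q2, Dicer1, Arid3b, Per1, Herpud1 and Prpf39, at 0.150 to 0.169 and with differences from -0.75 (Per1) to -0.33 (Herpud1). H2-Q2 is one of several near-identical class I genes, so that its probe may have read others. The profile did not stand equally for its own genes, with H2-Ab1 at 0.161, Cd74 at 0.217 with 233 genes nearer, and H2-Aa at 0.352 with 3824 genes nearer. Of the class II genes outside the profile H2-DMb1 was the closest at 0.166, with 7 genes nearer than it, followed by H2-DMa at 0.298. Ciita lay at 0.363, H2-Oa at 0.496, Ctss at 0.764 and H2-Ob at 0.902. The last 3 lay farther from the profile than the median gene did.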

How the data were processed

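Whole-tissue RNA of 5 WT lungs and 5 SCC was measured on 10 single-colour Agilent arrays. The authors' software was Agilent Feature Extraction per the file headers, and the deposited files hold a background-subtracted processed intensity per spot. A matrix of log2 values was deposited as well (quantile normalization and log2 transformation per the methods, in Partek), which matched the values used here with r of at least 0.99995 and served for choosing probes and as an alternative. Groups and replicate numbers came from the sample titles, and per the methods n counts biological replicates.

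Flagged and control spots were left out, replicate spots were averaged on the log2 scale, and 41174 probes were quantile-normalized. Probes well above background on at least 4 of 5 arrays of a group were tested (30374) with limma 3.58.1 in R 4.3.3 (two-sided, no covariates, Benjamini-Hochberg over all tested probes). The methods' one-way analysis of variance was run as an alternative. Passed means an adjusted p below 0.05, and called also at least 2-fold. Accessions were paired with symbols through RefSeq (GRCm38.p6), which named 28223 probes (68.5%). The files' build differs, so probes have no coordinates. Single genes were also compared by exact permutation over all splits of the arrays. The number of arrays limits the precision. A normalized intensity has no order between different probes.

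The class II genes and all gene lists were chosen with earlier results of these data known. The text names the class II genes, of the other lists up to 3 called genes with the largest difference in each direction and those a result turns on, and the 10 genes with the nearest profile. Other genes of the lists that are named were chosen after their values were seen. The values of 2 genes of these lists are not reported here. The fit was tested on simulated data. Alternatives were the matrix values, 75th percentile scaling, normexp with an offset of 50, no or a strict filter, slide as a fixed or random block, a replicate block, array weights, the mean of all probes of a gene, and leaving out arrays.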

Additional observations from a re-analysis of the deposited data

Results flagged for a closer look

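Each group of 5 arrays of the 9 class II genes, 18 in all, was examined for an array far from the rest, as the gap to its nearest neighbour over the range of the group and set against Dixon's critical value. About 5% of groups exceed it by chance. In 3 groups the gap was larger. SCC array 2 was low for H2-Aa, with a gap of 0.763, and for Ctss, with a gap of 0.915. WT array 5 was high for Ciita, with a gap of 0.756. The Ciita difference was -0.69 without WT array 5, the Ctss difference 1.07 and the H2-Aa difference -0.33 without SCC array 2.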

How the results depend on the processing

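No class II gene changed direction in any alternative in which it was fitted. Of 206 values of single class II genes under 23 alternatives, 181 stayed on their side of the threshold, 22 no longer passed (14 of them Cd74, 7 Ctss and 1 H2-DMa) and 3, all of H2-Ob, newly passed. With slide as a fixed block the median was -1.06, 2 genes were called lower and 0 passed higher. With the replicate block 5 passed lower and 0 passed higher, beside 22% and 18.7% of all probes. The replicate numbers do not pair the samples (correlations of deviations from -0.099 to 0.0093, and no WT array was nearest to its own number), so this block was an alternative only. The 75th percentile scaling called 1 higher, and array quality weights, like leaving out SCC replicates 2 and 5 together, called 2 lower and 1 higher. Of all 30374 tested probes the scaling called 3504 higher. The weights called 4143 lower and 3564 higher, and leaving out both replicates 4215 and 3675. Leaving out each array in turn gave 1 to 2 called lower, 0 to 1 called higher, 0 to 1 passing higher, 5 to 6 passing lower and a median from -0.76 (without WT array 1) to -0.45 (without WT array 5). In these fits 22.3% to 32.3% of all probes passed lower and 19.3% to 26.5% passed higher. Over all probes 3940 were called lower and 3014 higher, against 2103 and 1942 with normexp and 1587 and 1402 with slide as a fixed block, where 1957 passed lower and 1857 higher instead of 8088 and 6790. The median over all probes was -0.090, and 0.032 with 75th percentile scaling. Of 96 other named genes 12 no longer passed with that scaling and 56 with slide as a block.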
